A study of Mus musculus with 6 samples.

Results

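Crypt progenitors of the jejunal epithelium were taken here as the cells with the highest combined level of Clca3b, Dmbt1, Cps1 and Hmgb2, and they numbered 205 of 2043 cells. For each gene, the 5th percentile of the deposited log2 values among the cells of the same amplification pool was subtracted. The 10% of cells of each region's table with the highest mean of the 4 differences were selected, 103 of 1028 anterior and 102 of 1015 posterior cells, and are called members below. Members were thus chosen by the measured values of these 4 genes, so the 4 genes, and every comparison of members with the other cells, are given as descriptions without a test. At the edge of the choice, the last anterior cell inside had a mean difference of 2.220 log2 units and the first outside 2.218, and the posterior values were 1.378 and 1.371.

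The cells came from 3 mice aged 120 days on a mixed CD-1:C57BL/6 background, and the labels name no genotype or treatment. Each mouse gave an anterior jejunum sample, from the 3rd of 12 pieces of the small intestine, and a posterior one, from the 7th piece. Villus and crypt cells had been combined in equal parts before living cells positive for EpCAM, an epithelial surface protein, were sorted singly, so shares of cells do not give tissue proportions. Sequencing followed MARS-seq, a plate method that tags each captured mRNA with a unique molecular identifier (UMI). Anterior samples held 54, 13 and 36 members of 568, 198 and 262 cells in mice 1, 2 and 3, and posterior samples 72, 12 and 18 of 511, 280 and 224. Members made up 9.51, 6.57 and 13.7% of the anterior and 14.1, 4.29 and 8.04% of the posterior samples' cells. All comparisons below were made over samples with equal weight. For mice 2 and 3 the pool names give 1 plate a sample, so plate and sample cannot be told apart there.

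Intestinal crypts hold the dividing cells of the epithelium. Stem cells at the crypt base carry the receptor Lgr5, their transit-amplifying daughters divide on the way up, and absorptive enterocytes and secretory goblet, Paneth and enteroendocrine cells arise from them. Of the 4 genes, Hmgb2 encodes a chromatin protein abundant in dividing cells and Cps1 the mitochondrial carbamoyl phosphate synthetase of the urea cycle. Dmbt1 encodes a secreted scavenger receptor protein of mucosal surfaces, and Clca3b a member of the calcium-activated chloride channel regulator family. On GRCm38 the genes span these positions: Hmgb2 chromosome 8, 57511907 to 57515999, plus strand, Cps1 chromosome 1, 67123026 to 67231259, plus strand, Dmbt1 chromosome 7, 131032053 to 131121630, plus strand, and Clca3b chromosome 3, 144822623 to 144849357, minus strand.

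Upstream sequences are shown for the 2 choosing genes that RefSeq's promoter table lists, Hmgb2 and Clca3b, and for 3 mitotic genes that were high in members. Each is the 250 bases before the RefSeq start site on GRCm38.p6, 5′ to 3′ on the gene's strand. Capitals mark CCAAT or TTTGAA on either strand. CCAAT is the core of the CCAAT box and TTTGAA that of the cell cycle homology region, both known from promoters of genes active in G2 and M phase. The windows are Hmgb2 (chr8:57511593-57511842, plus strand), Clca3b (chr3:144849303-144849552, minus strand), Ube2c (chr2:164769679-164769928, plus strand), Cdk1 (chr10:69352913-69353162, minus strand) and Top2a (chr11:99024190-99024439, minus strand).
Hmgb2: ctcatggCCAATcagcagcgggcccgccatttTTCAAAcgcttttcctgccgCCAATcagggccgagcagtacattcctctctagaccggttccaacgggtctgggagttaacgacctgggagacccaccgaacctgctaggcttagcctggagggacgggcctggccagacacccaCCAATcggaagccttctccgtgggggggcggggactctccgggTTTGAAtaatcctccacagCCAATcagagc
Clca3b: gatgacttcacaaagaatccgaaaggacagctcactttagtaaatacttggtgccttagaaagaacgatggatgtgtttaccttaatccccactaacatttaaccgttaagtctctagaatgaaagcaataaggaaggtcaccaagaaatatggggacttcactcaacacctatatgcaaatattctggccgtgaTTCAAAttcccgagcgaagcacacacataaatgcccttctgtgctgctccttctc
Ube2c: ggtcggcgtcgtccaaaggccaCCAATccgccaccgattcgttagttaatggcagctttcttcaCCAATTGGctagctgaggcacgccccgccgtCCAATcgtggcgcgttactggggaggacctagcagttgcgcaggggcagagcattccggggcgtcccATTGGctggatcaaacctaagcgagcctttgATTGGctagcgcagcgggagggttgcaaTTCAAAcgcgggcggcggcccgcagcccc
Cdk1: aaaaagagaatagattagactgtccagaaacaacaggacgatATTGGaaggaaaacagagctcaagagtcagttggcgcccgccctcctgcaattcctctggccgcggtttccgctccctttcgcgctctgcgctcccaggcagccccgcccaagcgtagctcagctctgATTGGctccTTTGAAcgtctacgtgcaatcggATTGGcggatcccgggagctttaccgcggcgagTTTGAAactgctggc
Top2a: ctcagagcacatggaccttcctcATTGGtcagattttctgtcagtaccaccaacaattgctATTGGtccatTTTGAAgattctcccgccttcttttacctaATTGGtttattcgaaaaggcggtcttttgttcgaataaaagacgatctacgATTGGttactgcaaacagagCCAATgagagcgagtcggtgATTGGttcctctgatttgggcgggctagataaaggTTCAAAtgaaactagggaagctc

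The Hmgb2 window held 4 CCAAT and 2 TTTGAA matches, and the Clca3b window 0 and 1. Ube2c held 6 and 1, Cdk1 3 and 2 and Top2a 6 and 2. Among the G2/M genes measured in both tables, 11 of 13 listed promoters (84.6%) held CCAAT and 6 (46.2%) held TTTGAA. Over all 27025 listed promoters the shares were 34.5% and 16.3%, and over the 4021 listed promoters of the genes compared between members and other cells 37.1% and 9.85%. Among listed promoters of genes called higher in members, described below, the shares were 41.7% and 14.7% of 434, and among those called lower 34.3% and 11.7% of 624. The E2F-type letters TTTGGCGC, TTTCCCGC and TTTCGCGC, searched on both strands, were in 0.437%, 0.929% and 0.255% of all promoters and in 1.02%, 1.91% and 0.547% of those of the compared genes. The shares were 1.61%, 3.46% and 1.84% for the higher genes (7, 15 and 8 promoters) and 0.160%, 0.962% and 0.160% for the lower genes. These are matches of letters in a window, not binding sites.

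Depth differed between members and the rest. The median UMI count was 11306 in members and 2880.5 in other cells, and members were deeper in 6 of 6 samples, by 1.61 to 5.45 times. Levels are therefore given as UMIs per 10000 UMIs of the cell (CP10K), averaged over the cells of a sample. Each main count of genes was repeated with cells of at least 5000 UMIs, which kept 173 members and 715 other cells. That limit was set after the data were seen, and the cycling share below was not repeated with it. The 6 samples held 1640578 to 3157105 UMIs each, of which members held 147718 to 868547. No cell name and no cell profile occurred more than once.

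**Figure D1:**
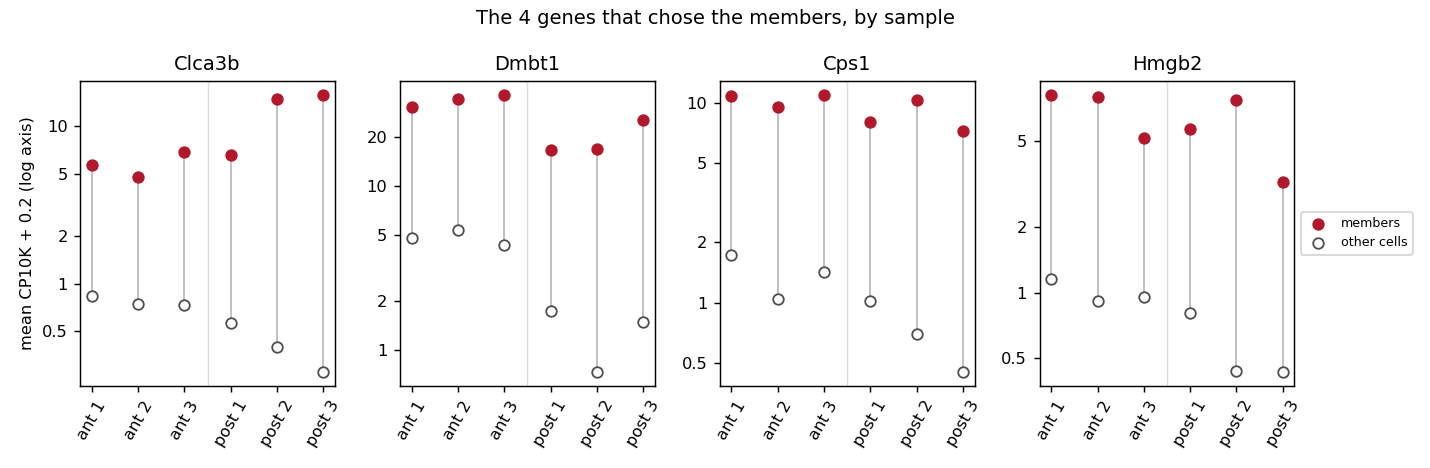
Mean level of the 4 choosing genes, as CP10K + 0.2 on log axes, in members (filled) and other cells (open) of 3 anterior and 3 posterior samples. Members lie above other cells in all 6 samples, as the choice requires, and Clca3b is highest in posterior mice 2 and 3.

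The 4 genes marked the members to different degrees. A Clca3b UMI was found in 150 of 205 members (73.2%) and 169 of 1838 other cells (9.19%), whereas Dmbt1 was found in 193 and 594. With every cell thinned to 1000 UMIs, which left 193 members and 1638 other cells, the shares with a UMI were 35.2% and 3.48% for Clca3b, 78.8% and 15.5% for Dmbt1, 58.5% and 6.78% for Cps1 and 36.8% and 5.43% for Hmgb2. All 4 genes were found together in 115 members (56.1%) and 34 other cells (1.85%). Members held 83.1% of all Clca3b UMIs, 65.7% of those of Cps1, 62.9% of Hmgb2 and 60.9% of Dmbt1.

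Clca3b measured 5.50, 4.55 and 6.63 CP10K in anterior members of mice 1, 2 and 3 and 6.36, 14.7 and 15.6 in posterior ones. Posterior mice 2 and 3 stood above all other samples, and posterior mouse 1 lay within the anterior range. Dmbt1 measured 30.1, 33.6 and 35.9 CP10K anterior and 16.3, 16.5 and 25.2 posterior, without overlap of the regions. Of the genes compared between regions, 9.97% did not overlap. In other cells Dmbt1 was at 4.62, 5.17 and 4.20 CP10K anterior and 1.53, 0.534 and 1.29 posterior. The cut on the mean of the 4 genes lay at 2.220 anterior and 1.378 posterior, so their region values were not tested. Cps1 averaged 10.2 ± 0.757 (SD, n = 3) anterior and 8.27 ± 1.59 posterior, and Hmgb2 6.88 ± 1.66 and 5.33 ± 2.22. In other cells the 4 genes averaged 0.394 ± 0.219 (Clca3b), 2.89 ± 1.99 (Dmbt1), 0.861 ± 0.467 (Cps1) and 0.583 ± 0.293 (Hmgb2) CP10K (SD, n = 6).

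Each of the 4 genes was also left out of the choice in turn. Choosing by the other 3 genes gave 156 to 178 of the same 205 cells, an overlap partly built in by the 3 shared genes. The gene left out was higher in the chosen cells in 6 of 6 samples each time. Clca3b, left out, was at 5.91 ± 4.14 CP10K against 0.709 ± 0.274 in the rest (SD, n = 6). Dmbt1 was at 18.3 ± 7.86 CP10K against 3.73 ± 2.19 in the rest, and Cps1 at 7.39 ± 1.71 CP10K against 1.07 ± 0.611 in the rest. Hmgb2 was at 4.70 ± 1.56 CP10K against 0.719 ± 0.446 in the rest.

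Beyond these genes, ribosomal protein, ribosome assembly, proliferation, proteasome and folding genes made up a larger share of UMIs in members than in other cells. Goblet, enterocyte and enteroendocrine genes made up a smaller share, with the counts for each list given below. Ribosomal protein genes alone averaged 2457 CP10K in members and 589 in other cells, which leaves a smaller share for other genes. Amounts of RNA per cell were not compared. Of 5425 genes that averaged 0.2 CP10K or more, 812 (15%) were called higher and 798 (14.7%) lower, where a call means the same direction in 6 of 6 samples and a mean difference of at least 1 on the log2(CP10K + 0.2) scale. The median over all 5425 genes was −0.14. This scale understates the change of low genes. In cells of at least 5000 UMIs the counts were 682 and 505, and 605 of the 812 and 359 of the 798 genes were called again.

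Genes of division were prominent among the higher ones. Ptma, which encodes the chromatin-associated prothymosin alpha, was at 15.3, 12.0 and 13.5 CP10K in anterior and 12.4, 13.2 and 7.65 in posterior members. Other cells of the same samples held 4.78, 1.85 and 1.51 and 3.06, 0.791 and 0.475, so the lowest member sample exceeded the highest sample of other cells, and the mean log2 difference was 2.75 ± 0.85 (SD, n = 6). Tuba1b, an alpha-tubulin gene, averaged 3.63 ± 1.02 against 0.435 ± 0.219 CP10K (log2 2.64), and the histone variant gene H2afx 2.54 ± 1.53 against 0.237 ± 0.102 (log2 2.49). Of 45 proliferation genes kept apart from the cycling call below, 28 were measured in both tables, and 24 of them were called higher and 0 lower (median log2 1.80). They included Ran, the GTPase of nuclear transport (log2 2.33), the histone variant gene H2afz (2.31), the beta-tubulin gene Tubb5 (2.28), Dut, which clears dUTP (2.21), and the G1 cyclin gene Ccnd1 (2.18). Tubulin genes are close copies, and their single values are uncertain where reads were shared.

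S phase and mitotic genes were higher as well. Of 6 measured S phase genes 4 were called higher (median log2 1.64), namely the replication clamp gene Pcna (1.68), the helicase subunit genes Mcm6 (1.77) and Mcm7 (1.61) and the histone chaperone gene Nasp (1.87). Of 14 measured G2/M genes 8 were called higher and 0 lower (median 1.62). The ubiquitin-conjugating enzyme gene Ube2c averaged 2.58 ± 1.06 against 0.330 ± 0.253 CP10K (log2 2.46), and the mitotic kinase gene Cdk1 1.40 ± 0.428 against 0.167 ± 0.0624 (log2 2.10). Top2a, the topoisomerase of chromosome condensation, was at 1.32, 4.99 and 1.77 CP10K in anterior and 1.03, 5.90 and 2.17 in posterior members, with both samples of mouse 2 above the rest, and at 0.0844 to 0.751 in other cells. In the anterior table alone, all 12 further G2/M and 6 further S genes were higher in 3 of 3 samples, among them the proliferation antigen gene Mki67 (1.62 ± 0.712 against 0.320 ± 0.0914 CP10K, n = 3).

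**Figure D2:**
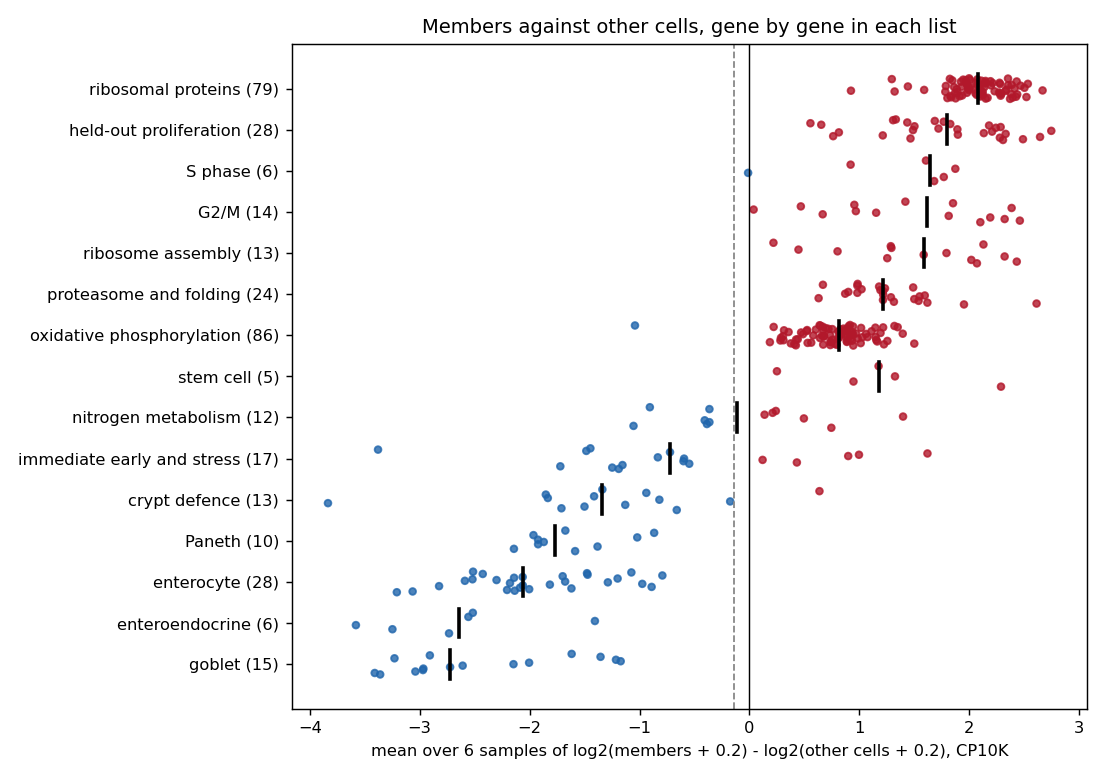
Mean log2 difference, members minus other cells over 6 samples, for each gene (point, red above 0 and blue below) of 15 gene lists, with list medians as black bars, gene numbers in brackets and the median of all tested genes as a dashed line at −0.14. Lists of ribosomes, division and folding lie to the right, and lists of mature lineages to the left.

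Ribosomal protein genes were higher almost without exception. Rpl12, a protein of the large subunit, was at 42.3, 54.5 and 42.7 CP10K in anterior and 43.5, 47.8 and 46.3 in posterior members, against 12.6, 6.86 and 6.64 and 10.7, 3.69 and 5.43 in other cells, without overlap. Of 79 ribosomal protein genes 77 were called higher and 0 lower, and 78 were higher in 6 of 6 samples, compared with 22.6% of all genes. Their sum was 2265 to 2666 CP10K in members and 394 to 938 in other cells (median log2 2.08, and 1.72 in cells of at least 5000 UMIs). Rpl3 (2.53), Rps15a (2.52) and Rpl27a (2.50) were among the 15 largest differences. Ribosomal protein genes have many processed copies, so single values are uncertain, as for the pseudogene Gm2830 (log2 2.61) and the unclassified transcript Gm45912 (2.56), which also ranked there.

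Ribosome assembly, protein folding and mitochondrial genes were higher by less. Of 13 measured ribosome assembly genes 8 were called higher and 0 lower (median 1.59), with the nucleolar protein genes Npm1 (9.16 ± 1.16 against 1.60 ± 0.592 CP10K, log2 2.43) and Ncl (2.07) and the methyltransferase gene Fbl (2.02) among them. Of 24 proteasome and folding genes 17 were called higher (median 1.22), led by the mitochondrial chaperonin gene Hspe1 (12.7 ± 1.56 against 2.07 ± 1.00 CP10K, log2 2.61). The list's count was 12 in cells of at least 5000 UMIs and 4 with a pseudocount of 1. The partner of Hspe1, Hspd1, a neighbour on chromosome 1 with which it overlaps at the start, differed by 1.95. Of 86 oxidative phosphorylation genes 18 were called higher and 1 lower (median 0.81), but in cells of at least 5000 UMIs 1 was called higher (median 0.40). The other genes of the 15 largest differences were the interferon-induced membrane protein gene Ifitm3 (log2 2.85), the cytokine gene Mif (2.69), the mitochondrial matrix protein gene C1qbp (2.66), the potassium channel subunit gene Kcne3 (2.62) and the spliceosome gene Snrpf (2.61). Ifitm3 was at 1.57, 2.46 and 3.83 CP10K in anterior and 2.08, 3.73 and 9.03 in posterior members, with posterior mouse 3 far above the other samples.

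Stem cell markers were higher in members as a list, but Lgr5 was not. Of 5 stem cell genes that passed the filter on low values, 3 were called higher and 0 lower (median log2 1.175, all genes −0.14). The list's sum was 5.65 to 9.68 CP10K in members and 1.77 to 4.41 in other cells. Lgr5 was at 0.234, 0.125 and 0.187 CP10K in anterior and 0.135, 0.0560 and 0.0870 in posterior members, against 0.559, 0.01999 and 0.161 and 0.398, 0.0499 and 0.215 in other cells, and was higher in members in 3 of 6 samples. It lay below the filter on low values. A Lgr5 UMI was found in 14.1% of members and 7.67% of other cells before thinning, and in 1.04% and 2.69% after it. Slc12a2, the basolateral cotransporter of crypt cells, was at 4.42, 2.96 and 2.03 CP10K in anterior and 3.98, 3.47 and 3.20 in posterior members, against 0.764, 0.541 and 0.379 and 0.826, 0.539 and 0.196 in other cells. Every member sample exceeded every sample of other cells (log2 2.29 ± 0.42). Of the 5 stem cell genes that passed the filter, Sox9, a transcription factor of the crypt base (log2 1.32), and Hopx (1.175) were also called higher. The Wnt target Axin2 was higher in 6 of 6 samples by 0.95, short of a call, and Prom1 differed by 0.25. In the anterior table alone Smoc2 was at 1.12 ± 0.159 against 0.105 ± 0.0624 CP10K and the ephrin receptor gene Ephb2 at 0.739 ± 0.214 against 0.116 ± 0.0702 (n = 3), and 4 of 6 stem cell genes there were higher in 3 of 3 samples. Rnf43 and Cd44 were higher in 2 of 3. Division genes and part of the crypt genes were thus higher in members, but Hmgb2, itself a gene of dividing cells, helped choose them. With members chosen without Hmgb2, 24 of the 28 proliferation genes kept apart and 8 of 14 G2/M genes were called higher. That choice held 178 of the same 205 cells, so similar counts were largely built in. Lgr5, the stem cell marker, was not higher as a rule.

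**Figure D3:**
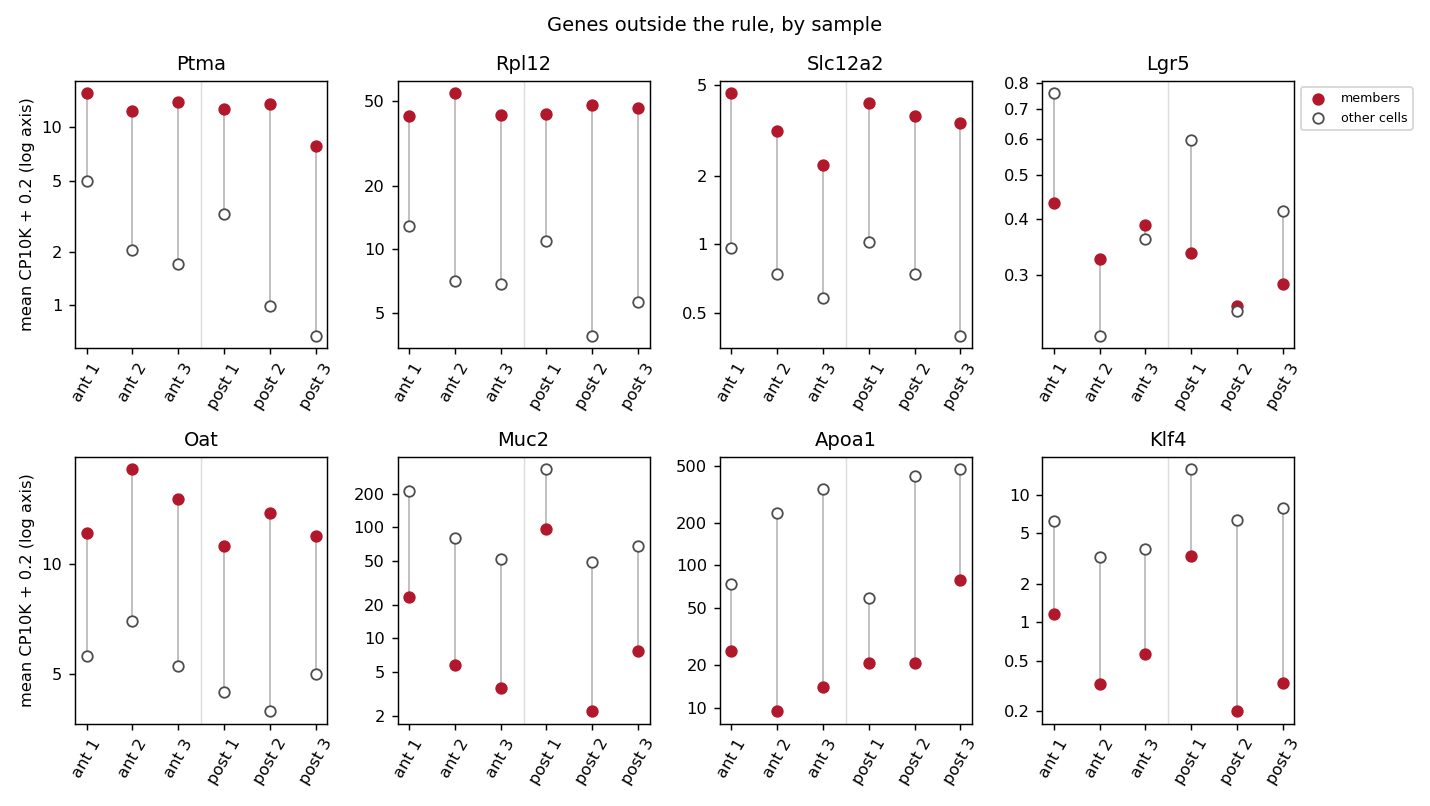
Mean level of 8 genes outside the choice, as CP10K + 0.2 on log axes, in members (filled) and other cells (open) of each sample. Ptma, Rpl12, Slc12a2 and Oat are higher and Muc2, Apoa1 and Klf4 lower in members of all 6 samples, and Lgr5 is higher in 3 of 6.

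Goblet cell genes were low. Muc2, the gel-forming mucin, was at 23.5, 5.52 and 3.40 CP10K in anterior and 95.1, 2.00 and 7.55 in posterior members, against 209.8, 79.5 and 51.0 and 333, 48.1 and 67.3 in other cells (log2 −3.36 ± 0.91). Members of posterior mouse 1 stood far above the other member samples. All 15 measured goblet genes were called lower (median −2.72), including the mucus proteins Fcgbp (−3.41), Zg16 (−3.04) and Tff3 (−2.97) and the guanylin gene Guca2a (−3.23). Their sum was 22.3 to 512 CP10K in members, highest in posterior mouse 1, and 453 to 1912 in other cells. Of the 72 members of posterior mouse 1, 9 exceeded the median goblet sum of that sample's other cells, and the most marked held 5547 CP10K. Without that sample 852 genes were called higher and 926 lower, and the goblet median was −2.74. Over all samples, 19 of 205 members exceeded their sample's median for the goblet sum, 34 for the Paneth, 41 for the enterocyte and 51 for the enteroendocrine sum. Of the 41 above the enterocyte median, 24 were in posterior and 16 in anterior mouse 1, and 10 of 18 members of posterior mouse 3 lay above the Paneth median. The part of such cells in the differences was not tested.

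Other secretory genes were low too. Reg4, a lectin of secretory cells, was at 2.42, 1.29 and 0.848 CP10K in anterior and 0.957, 0.0754 and 0.0524 in posterior members, against 42.7, 27.8 and 19.3 and 7.91, 6.67 and 1.94 in other cells. At −3.84 ± 0.72 it was the largest negative log2 difference among called genes of at least 1 CP10K, although the levels of the regions differed in both classes. Of 6 measured enteroendocrine genes 4 were called lower (median −2.65), with the hormone gene Sct (−3.58) and the granule protein gene Chgb (−3.25) among them. Of 10 Paneth genes 5 were called lower and 0 higher (median −1.77). The defensin gene Defa24 differed by −1.92 and the lysozyme gene Lyz1, higher in 1 of 6 samples, by −1.59, and defensin copies may share reads. Of 4 measured secretory progenitor genes 0 were called higher and 1 lower (median −0.47). Spdef was called lower (−1.58) and Atoh1 was not (0.246 ± 0.403 against 0.545 ± 0.522 CP10K). In the anterior table alone Dll1 was at 0.0705 ± 0.0651 against 0.599 ± 0.195 CP10K (n = 3). Dll4 was at 0.00471 ± 0.00816 against 0.432 ± 0.301 there, and both were higher in members in 0 of 3 samples. Clca3b's relatives Clca1, also in the goblet list, and Clca4b differed by −2.97 and −2.26. The sign of Clca3b itself was set by the choice of members, so it is not compared with theirs.

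Enterocyte genes were lower with less uniformity. Apoa1, the apolipoprotein of absorbing enterocytes, was at 25.0, 9.24 and 13.9 CP10K in anterior and 20.5, 20.4 and 79.0 in posterior members, against 73.8, 234 and 343 and 59.1, 422 and 476 in other cells (log2 −3.21 ± 1.50). Members were lower within each sample, but posterior mouse 3 members exceeded the other cells of both mouse 1 samples. Of 28 enterocyte genes 21 were called lower and 0 higher (median −2.06). The sucrase gene Sis, at 2.77 ± 1.67 against 5.13 ± 2.56 CP10K, differed by −0.89, and the fatty acid binding protein gene Fabp1 by −2.004 with 1 of 6 samples higher. Of the remaining largest negative differences, the microvillus genes Espn (−3.40) and Cdhr5 (−3.14) and the transcription factor gene Klf4 (−3.38), known from differentiated epithelium, were lower in 6 of 6 samples. Summed enterocyte levels were 121 to 282 CP10K in members and 297 to 1319.7 in other cells.

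Genes near the functions of Cps1 and Dmbt1 did not follow them as groups. Oat, the ornithine aminotransferase, was at 11.9, 17.97 and 14.8 CP10K in anterior and 11.02, 13.6 and 11.7 in posterior members, against 5.42, 6.80 and 5.05 and 4.28, 3.76 and 4.80 in other cells, without overlap (log2 1.40 ± 0.24). The urea cycle gene Otc averaged 2.59 ± 0.866 against 1.45 ± 0.371 CP10K (log2 0.75, higher in 6 of 6 samples), whereas Asl was called lower (−1.06). Of 12 nitrogen metabolism genes 1 was called higher and 1 lower (median −0.11). In cells of at least 5000 UMIs 0 were called in either direction, with Oat at 0.98 and Asl at −0.74. Of 13 defence genes 0 were called higher and 6 lower (median −1.34). The antimicrobial lectin gene Reg3b differed by −1.50, the immunoglobulin transporter gene Pigr by −0.82 and Lypd8, which limits flagellated bacteria, by −0.18. Reg family genes are close copies and may share reads.

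Few markers of non-epithelial cells were measured. Of the T cell list Cd8a alone was in both tables (log2 0.23), with a sum of 0.102 to 0.739 CP10K in members and 0.107 to 0.346 in other cells, and 0 B or plasma cell and 0 myeloid markers were in both. The plasma cell genes Igkc and Jchain were in the anterior table alone, where mouse 1 held 1.87 and 0.218 CP10K in members and 16.1 and 1.60 in other cells. In mice 2 and 3 both genes were at 0 in members and at no more than 0.0125 in other cells. The endothelial gene Pecam1 averaged 0.549 ± 0.366 against 0.846 ± 0.441 CP10K (log2 −0.51, higher in 2 of 6 samples). The part of these cells in the differences was not tested. Of 17 immediate early and stress genes 1 was called higher and 7 lower (median −0.72), but in cells of at least 5000 UMIs 3 were called higher and 2 lower (median −0.24). Within them Jun differed by −1.72 and Fos by −1.19, and in the deeper cells Jun stood at 0.04. A mark of positive or negative in the plate table, whose marker is not named there, was compared after the files were seen. Members were 9.39% ± 5.29 of cells marked positive and 9.41% ± 3.01 of those marked negative (SD, n = 6), higher among positive ones in 2 of 6 samples (two-sided exact sign-flip test, p = 1, smallest possible 0.03125).

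Whether members differed along the jejunum was tested across 5016 genes with limma. With Benjamini-Hochberg adjustment at 0.05, 0 genes (0%) rose or fell, and 239 (4.76%) had an unadjusted p under 0.05. With mouse as a block the count was also 0. The values below are those of the genes with the smallest p. Replicates are separate mice, and members of a sample shared plates and pools.

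Reg1, a secreted lectin, was at 3.93, 7.96 and 16.4 CP10K in anterior and 1.07, 0.789 and 1.21 in posterior members of mice 1, 2 and 3. The regions did not overlap, as for 9.97% of all genes (5.62% higher in anterior and 4.35% in posterior members), and the log2 difference was 2.77 (SE 0.473, limma adjusted p = 0.440, and 0.0816 with the block). Adh1, an alcohol dehydrogenase, was at 6.73, 6.40 and 11.9 and 2.08, 0.195 and 1.58 (log2 2.81), and Prap1, a secreted protein of enterocytes, at 22.3, 29.7 and 36.3 and 10.2, 14.8 and 17.5 (log2 1.05). Their limma adjusted p was 0.783 and 0.987, and 0.0816 and 0.0816 with the block. The incretin hormone gene Gip was at 10.7, 0.671 and 1.65 and 0.556, 0 and 0, with anterior mouse 1 well above the rest. The other genes of smallest p were App (log2 −1.55), Myo6 (−2.01), Cep350 (−2.37) and BC003965 (1.52).

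Genes of MHC class II antigen presentation had lower values in anterior members, short of the threshold. H2-Ab1 was at 1.54, 0.803 and 0.319 CP10K in anterior and 2.79, 4.30 and 3.51 in posterior members (log2 −1.93), and H2-Aa at 1.78, 0.585 and 0.0739 and 2.88, 4.20 and 4.52 (log2 −2.41). Neither gene's regions overlapped, with anterior mouse 3 lowest in both. H2-Eb1 (−2.13) and the invariant chain gene Cd74 (−1.52) had the same sign. Over all 5016 genes, 2620 were higher in anterior members and 239 (4.76%) had an unadjusted p under 0.05 by limma. Of 6 MHC class II genes 0 were higher in anterior members, 5 had an unadjusted p under 0.05 and 0 passed adjustment by limma (median −1.73, all genes 0.03). Their sum averaged 4.11 ± 3.44 CP10K anterior and 15.4 ± 1.78 posterior (SD, n = 3). In the other cells the sum was 5.59, 13.33 and 2.83 CP10K anterior and 12.5, 74.8 and 50.5 posterior, higher in the posterior sample of 3 of 3 mice, as in members. Enterocyte genes had a median of −0.40, with 8 of 27 under 0.05 unadjusted and 0 called.

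**Figure D4:**
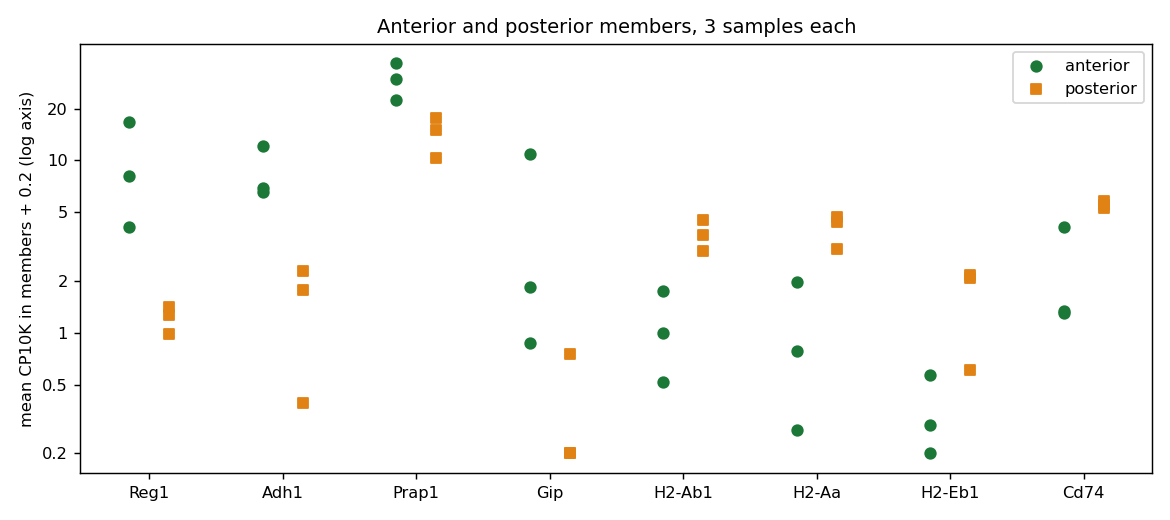
Level of 8 genes in members of each sample, as CP10K + 0.2 on log axes, anterior against posterior. Reg1, Adh1, Prap1 and Gip are higher in anterior and the MHC class II genes higher in posterior members, and none passed adjustment over all genes.

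Cycling members were those whose summed level of 20 S and G2/M genes exceeded the 95th percentile of the other cells of the table, 49.2 CP10K anterior and 39.4 posterior. By this cut on a continuous score 56 of 205 members were called cycling, a name for the score alone, and 39 lay within 20% of the threshold. The genes weighed unequally in the score. Tubb4b and Jpt1, both G2/M genes, made up 24.1% and 25.6% of the mean sum in other cells and 16.0% and 11.9% in members. The share was 25.9, 38.5 and 27.8% in anterior and 22.2, 50 and 27.8% in posterior members of mice 1, 2 and 3, against 2.91% to 6.19% of other cells, a share that the threshold itself fixes. Posterior mouse 2, with 12 members, was highest, and its Wilson 95% interval ran from 25.4% to 74.6%. Anterior samples averaged 30.7% ± 6.77 and posterior ones 33.3% ± 14.7 (SD, n = 3), a difference of −2.61 percentage points (two-sided exact permutation test, p = 0.9, smallest possible 0.1). Thinned to 1000 UMIs the shares averaged 28.5% and 38.6% (exact p = 0.3). Without posterior mouse 2 the sign turned, to 5.72 points.

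The defining genes describe which part of the cycle the cut selected. G2/M genes summed to 58.1 CP10K in cycling and 15.2 in non-cycling members, and S genes to 7.09 and 5.85. In other cells S genes summed to 1.51 ± 0.478 CP10K (SD, n = 6). The cut thus separated members mainly by G2/M genes, and members called non-cycling may include cells in S phase. Ube2c averaged 6.14 ± 1.16 against 0.981 ± 0.702 CP10K (SD, n = 6) and Top2a 6.07 ± 3.51 against 1.19 ± 1.27, both higher in 6 of 6 samples. Pcna, in contrast, averaged 0.743 ± 0.338 against 1.72 ± 0.553 and was higher in 1 of 6. Of the choosing genes, Hmgb2 averaged 10.3 ± 2.10 against 4.22 ± 1.90 CP10K and was higher in cycling members in 6 of 6 samples, while Clca3b averaged 9.05 ± 5.63 against 8.37 ± 4.74, Dmbt1 23.9 ± 9.98 against 28.1 ± 8.78 and Cps1 10.02 ± 2.69 against 8.57 ± 1.85. Clca3b was higher in 3 of 6 samples, Dmbt1 in 2 and Cps1 in 4. These are descriptions, since the sums and the choice used these genes.

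Outside the defining genes, 1 of 4968 genes rose in cycling members (0.0201%) and 0 fell (0%) by limma at an adjusted p of 0.05, with 396 (7.97%) under 0.05 unadjusted. Without regard to size, 2.11% of genes were higher and 2.70% lower in cycling members in 6 of 6 samples. Tuba1c, an alpha-tubulin gene (chromosome 15, 99029891 to 99038110, plus strand), was at 5.97, 4.13 and 7.04 anterior and 5.90, 7.51 and 6.26 posterior CP10K in cycling members and 1.96, 1.50 and 1.43 anterior and 1.42, 1.65 and 0.361 posterior in non-cycling ones. The lowest cycling sample exceeded the highest non-cycling sample. The log2 difference was 2.08 (SE 0.305, limma adjusted p = 0.0420). Leaving out any 1 sample ended the call, with limma adjusted p from 0.0556 to 0.211 and log2 differences of 1.80 to 2.23. Cycling members were deeper in 5 of 6 samples, at a median of 13392, 16626 and 16238 UMIs anterior and 13296.5, 10343.5 and 12892 posterior against 7337.5, 14222 and 13101 and 9677, 13355 and 9402. A cycling cut by G2/M genes alone (limma adjusted p = 0.0547) and a split at the median of each sample (limma adjusted p = 0.124) ended it too, at log2 differences of 1.97 and 1.59. The cut from each table's own defining genes kept it (log2 2.18, limma adjusted p = 0.0219). In members of at least 5000 UMIs the limma adjusted p of Tuba1c was 0.00522.

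The genes next in order did not pass. Tubb5 averaged 8.08 ± 1.65 against 2.77 ± 1.35 CP10K (log2 1.58, limma adjusted p = 0.0836), and securin, Pttg1, 3.88 ± 1.55 against 1.07 ± 0.664 (log2 1.74, limma adjusted p = 0.0976). Tubulin genes are close copies and Tubb4b was a defining gene, and the part of shared reads in Tubb5 was not tested. Plac8 averaged 10.8 ± 4.66 against 19.6 ± 6.86 (log2 −0.89, limma adjusted p = 0.0836), and the histone gene Hist1h4d 4.28 ± 2.79 against 0.976 ± 1.05 (log2 1.93). Also among the genes of smallest p were H3f3b (log2 0.81), Hsd17b2 (−1.93), C77080 (−2.18) and Prmt1 (1.86).

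Over all 4968 genes, 2373 had a positive difference and 396 (7.97%) an unadjusted p under 0.05 by limma. By list, 25 of 28 held-out proliferation genes had a positive difference, 16 an unadjusted p under 0.05 and 1 passed adjustment by limma (median 0.67, all genes −0.02). The classes were cut on other cycle genes of the same cells, so a rise of the proliferation list was partly built in. Enterocyte genes had 2 of 27 positive, 13 under 0.05 unadjusted and 0 called (median −0.69). Defence genes had 2 of 12 positive and 0 called (median −0.55), with Lypd8 at 14.3 ± 5.33 against 22.8 ± 9.33 CP10K. Ribosomal protein genes, which separated members from other cells, had a median of 0.13 between cycling and non-cycling members, with 66 of 79 positive, 7 under 0.05 unadjusted and 0 called. Their sums were 2622 and 2395 CP10K.

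**Figure D5:**
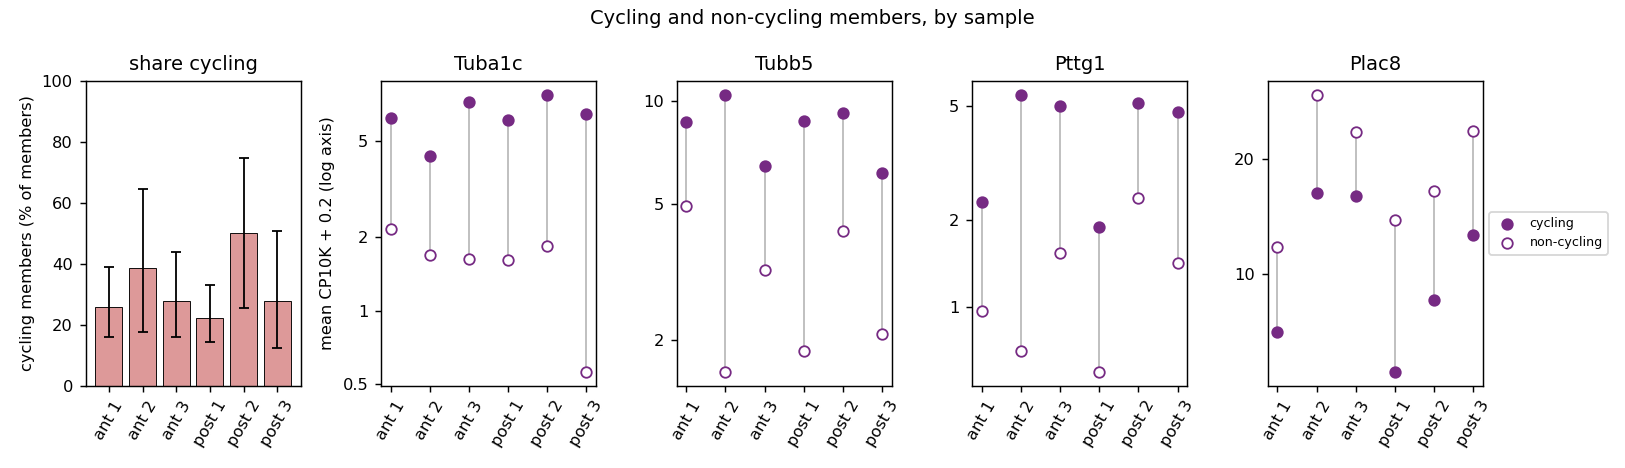
Percent of members cycling in each sample (bars from 0, with Wilson 95% intervals), and the level of Tuba1c, Tubb5, Pttg1 and Plac8 as CP10K + 0.2 in cycling and non-cycling members of each sample. Shares run from 22.2% to 50%, and Tuba1c, the gene that passed, is higher in cycling members of all 6 samples.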

How the data were processed

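The deposited tables of the authors hold log2 expression values of single cells, 6839 genes in 1028 anterior and 5831 genes in 1015 posterior cells, and 35.8% and 31.4% of the values lay below 0. The sources used here do not state what correction the authors applied. Per the submitters' processing notes, the tools were STAR 2.6.1b, cutadapt 1.18, bcl2fastq, R 3.5.1 and UMI-tools 1.0.0, and the build GRCm38 (mm10), with no role or order given. Offsets of each gene and pool, and slopes of each gene on hidden factors of the cells, were estimated from the values and undone. In each cell the resulting values fell on steps of whole UMIs, which were recovered for 100% and 99.9999% of values within a tolerance of 0.01. Levels are thus from recovered UMIs, whereas members were chosen by the deposited values. No count model was run. Members and gene lists were chosen with earlier results of these data known.

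The 5674 genes of both tables, with 98.0% of UMIs, were scaled to CP10K and averaged per sample and class, and log2(CP10K + 0.2) was compared for genes averaging 0.2 CP10K or more. Wells of 0 cells (72) or 10 cells (36) were not used, and 3348 wells held 1 cell. No doublet caller was run on these singly sorted cells. Regions were compared with limma 3.58.1 (trend) in R 4.3.3 without a block, and cycling classes with sample as a block, with Benjamini-Hochberg adjustment. The 4 choosing genes, and for cycling the defining genes, were left out. Python 3.11.15, numpy 2.4.6, pandas 2.3.3 and scipy 1.17.1 did the rest. Wilson 95% intervals cover counting error only. Replicate numbers name mice that gave both regions, which pairs the samples. Across 5016 genes, deviations of the same mouse correlated at 0.251, 0.0982 and 0.0386, and those of different mice at −0.171 to 0.0509. Genes were named by a written rule: list members, the 15 largest positive and 10 largest negative called differences of at least 1 CP10K, and the called or 10 smallest-p genes of each test, of which 1 is not reported here. On simulated data, limma recovered 44% of log2 changes of 1 and 95% of changes of 2 between regions (5016 genes, 7 false calls). Between cycling classes it recovered 59% and 99% (4968 genes, 3 false calls). The simulated spread between samples was a fixed setting, not fitted to these mice, and the lowest genes were not changed. These shares therefore do not give the power of the tests here.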

Additional observations from a re-analysis of the deposited data

How the results depend on the processing

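The count of genes higher in members, 812, was 268 with a pseudocount of 1 and 397 with a filter at 1 CP10K, and 792 to 868 with 1 sample left out. The count of lower genes, 798, was 425 with the top 20% of cells, 505 in cells of at least 5000 UMIs, 241 with a pseudocount of 1 and 338 with a filter at 1 CP10K, and 794 to 926 with 1 sample left out. Jun turned from −1.72 to 0.0427 in cells of at least 5000 UMIs. Between regions limma called 0 genes under every alternative run. Between cycling classes, the 1 higher gene became 62 with the top 20% of cells, 2 with membership by mean log2(CP10K + 1), 0 without Hmgb2, 0 with a pseudocount of 0.05, 3 with a filter at 1 CP10K, 0 with G2/M genes alone, 5 at the 90th percentile, 2 with each table's own defining genes, and 0 to 1 with 1 sample left out. The 0 lower genes became 102 with the top 20% of cells, 1 with the filter at 1 CP10K, 2 at the 90th percentile, and 0 to 1 with 1 sample left out (1 without posterior mouse 2). The difference in cycling share, −2.61 points, turned to 10.1 with the top 20% of cells, 19.8 with membership by mean log2(CP10K + 1) and 2.42 with each table's own defining genes. It was −26.3 with the top 5% of cells (exact p = 0.1, the smallest possible) and −11.2 without Hmgb2, and ran from −8.17 to 5.72 with 1 sample left out. The cause of these changes was not tested. With mouse as the replicate block, limma called 0 genes between regions, and with mouse and region as blocks 1 higher and 0 lower gene between cycling classes, with Tuba1c at an adjusted p of 0.0262. Sign flips over the 3 mice gave an exact p of 1 for the difference of −2.61 points (smallest possible 0.25). The block changed no other call. The test of cycling genes in the top 5% of cells was not run, since too few samples held 5 cells of both classes. Limits are the few members of mouse 2 (13 and 12) and the greater depth of members.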
